A study of Mus musculus with 4 samples.

Results

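The genes described are a list of 43 that mouse cells use to copy their DNA and to divide, of 52636 genes in the count tables. They were chosen by name, and all 43 were found by their symbols. A set of 20 belongs to G1/S and S phase (Mcm2, Mcm3, Mcm4, Mcm5, Mcm6, Mcm7, Pcna, Tyms, Rrm1, Rrm2, Gins2, Uhrf1, Cdc6, Cdc45, Cdt1, Slbp, E2f1, Ccne1, Ccne2 and Pclaf) and is called the S-phase genes. The other 23 belong to G2 and mitosis (Mki67, Top2a, Cdk1, Ccna2, Ccnb1, Ccnb2, Birc5, Ube2c, Cenpf, Cenpe, Tpx2, Aurka, Aurkb, Bub1, Bub1b, Plk1, Kif11, Kif20a, Nusap1, Melk, Cdc20, Hmmr and Ttk) and are called the G2/M genes.

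Mammary glands of mice 6 months old were taken apart, EpCAM-positive (epithelial) cells were sorted, and single-cell RNA-seq libraries of transcript 3' ends were made. All animals carried pellets of estradiol and progesterone, labelled E2 and P4. Y541S giredestrant animals carried the Esr1 Y541S mutation, a change in the estrogen receptor gene, and received giredestrant, an oral estrogen receptor antagonist and degrader, at 30 mg/kg each day for 4 days. Y541S vehicle animals carried the same mutation and received the vehicle, labelled MCT. WT giredestrant animals had wild-type Esr1 and the same giredestrant dosing, and WT vehicle animals had wild-type Esr1 and the vehicle. Each group is 1 library, the number of animals in it is not labelled, nor whether the mutation was on 1 or both alleles, and no promoter or Cre is named. Every difference below is therefore between single libraries, with intervals that cover counting error only and with no test.

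Before a cell copies its DNA, licensing factors load the MCM helicase onto replication origins, and E2F transcription factors, released from the retinoblastoma protein, switch on the genes for the helicase, the sliding clamp and nucleotide synthesis. Genes for chromosome condensation, spindle assembly and the spindle checkpoint follow in G2, under the MuvB complex with B-MYB and FOXM1. MuvB binds promoter elements called CHR, and CCAAT boxes, which many of these promoters also hold, are bound by a separate factor, NF-Y. In the mammary gland, estrogen and progesterone act on hormone-sensing luminal cells, which in turn send growth signals to their neighbours.

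The promoters of 6 genes that the results below turn on are shown first, because they display where E2F, CHR and CCAAT matches lie. They were chosen for the genes and are no sample of the lists, and the shares over all windows found follow them. Each window runs from 250 bases before to 50 bases after the RefSeq start site in GRCm38.p6, 5' to 3' on the gene's strand. Capitals mark matches on either strand to E2F motifs (TTTCCCGC, TTTGGCGC, TTTCGCGC or TTTGCCGC), to CHR elements (TTTGAA or TTCGAA) or to CCAAT, and overlapping matches run together. Mcm5 (a helicase subunit, chr8:75109259-75109558, plus strand) and Mcm6 (a helicase subunit, chr1:128359656-128359955, minus strand) carry E2F and CCAAT matches. Mki67 (a coat protein of mitotic chromosomes, chr7:135716330-135716629, minus strand), Plk1 (a mitotic kinase, chr7:122159185-122159484, plus strand) and Aurka (a centrosome and spindle kinase, chr2:172370521-172370820, minus strand) carry CHR and CCAAT matches. Cdk1 (the kinase that drives entry into mitosis, chr10:69352863-69353162, minus strand) carries all 3 kinds.
Mcm5: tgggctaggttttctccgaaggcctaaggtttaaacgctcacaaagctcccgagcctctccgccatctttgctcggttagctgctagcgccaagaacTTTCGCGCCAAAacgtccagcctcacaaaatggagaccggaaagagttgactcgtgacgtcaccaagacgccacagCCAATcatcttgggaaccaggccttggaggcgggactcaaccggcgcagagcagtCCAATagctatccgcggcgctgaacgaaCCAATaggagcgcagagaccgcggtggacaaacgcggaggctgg
Mcm6: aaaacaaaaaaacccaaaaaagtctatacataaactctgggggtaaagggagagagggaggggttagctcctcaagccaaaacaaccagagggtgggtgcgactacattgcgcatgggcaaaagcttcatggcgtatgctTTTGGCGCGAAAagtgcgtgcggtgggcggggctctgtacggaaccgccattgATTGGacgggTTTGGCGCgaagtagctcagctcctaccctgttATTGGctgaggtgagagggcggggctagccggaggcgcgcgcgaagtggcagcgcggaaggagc
Mki67: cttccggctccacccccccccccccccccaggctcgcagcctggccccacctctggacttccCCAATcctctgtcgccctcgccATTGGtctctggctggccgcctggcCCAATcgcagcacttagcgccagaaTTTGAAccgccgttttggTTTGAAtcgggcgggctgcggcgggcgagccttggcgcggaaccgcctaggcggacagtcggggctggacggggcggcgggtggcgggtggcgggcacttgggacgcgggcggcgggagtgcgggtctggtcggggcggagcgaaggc
Plk1: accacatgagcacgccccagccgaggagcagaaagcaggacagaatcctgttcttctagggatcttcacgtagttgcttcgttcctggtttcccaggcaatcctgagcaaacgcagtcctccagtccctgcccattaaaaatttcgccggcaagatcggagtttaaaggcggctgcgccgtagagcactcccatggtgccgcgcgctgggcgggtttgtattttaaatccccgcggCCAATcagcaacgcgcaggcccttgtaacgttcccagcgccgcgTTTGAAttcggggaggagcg
Aurka: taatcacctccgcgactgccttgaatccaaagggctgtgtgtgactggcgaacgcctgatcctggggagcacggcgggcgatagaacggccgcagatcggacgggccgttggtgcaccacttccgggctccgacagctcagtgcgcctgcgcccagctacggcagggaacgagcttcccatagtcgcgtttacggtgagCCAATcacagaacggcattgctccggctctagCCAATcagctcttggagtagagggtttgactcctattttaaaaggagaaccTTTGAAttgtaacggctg
Cdk1: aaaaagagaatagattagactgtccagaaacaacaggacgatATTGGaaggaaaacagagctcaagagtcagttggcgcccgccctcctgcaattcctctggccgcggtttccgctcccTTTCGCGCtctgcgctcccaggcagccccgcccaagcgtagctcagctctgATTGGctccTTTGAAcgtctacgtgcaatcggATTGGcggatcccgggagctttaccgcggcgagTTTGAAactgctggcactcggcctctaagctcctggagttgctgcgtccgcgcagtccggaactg

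RefSeq windows were found for 36 of the 43 genes, 17 S-phase and 19 G2/M, and none was used for Mcm4, Gins2, Ccne2, Ccna2, Tpx2, Aurkb and Kif20a. An E2F motif stood in 8 of 17 S-phase genes (47.1%), in 1 of 19 G2/M genes (5.26%, Cdk1) and in 2.26% of all 32851 windows. CHR elements stood in 3 of 17 S-phase genes (17.6%), in 14 of 19 G2/M genes (73.7%) and in 19.2% of all windows. CCAAT stood in 12 of 17 S-phase genes (70.6%), in 16 of 19 G2/M genes (84.2%) and in 37.4% of all windows, so it was common in both lists. These are matches of letters in a fixed window and describe no binding.

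The 43 genes lie on many chromosomes, the S-phase genes on 12 and the G2/M genes on 11. In GENCODE M21 (GRCm38), Mcm6 runs on chromosome 1 from 128331590 to 128359664, Aurka on chromosome 2 from 172356190 to 172370535, Mki67 on chromosome 7 from 135689784 to 135716361 and Cdk1 on chromosome 10 from 69335146 to 69352938, all protein-coding and on the minus strand. The longest coding transcripts of the G2/M genes have a median of 3421 bases and reach 11130 bases (Cenpf), and those of the S-phase genes have a median of 3018.5 bases and reach 4614 bases (Cdc6). An annotated gene on the same strand overlaps 4 S-phase genes (Mcm7, Rrm1, Cdt1 and Pclaf) and 4 G2/M genes (Top2a, Tpx2, Kif11 and Nusap1). Whether UMIs at those places were split between genes was not checked.

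The libraries held 30062 barcodes, of which 25950 passed the filters on depth, genes and mitochondrial share. Median UMIs per kept cell were 6267.5 in the Y541S giredestrant library, 15290 in Y541S vehicle, 21927 in WT giredestrant and 10868 in WT vehicle, so the Y541S giredestrant library stood apart as the shallowest. Between 7 and 23 barcodes were shared by any pair of libraries. Cells were put in classes by the summed UMIs of 4 genes each: hormone-sensing (Esr1, Prlr, Areg and Foxa1), split at 3 UMIs of Krt14, a basal keratin, per 10000, secretory (Wfdc18, Csn3, Elf5 and Kit) and basal (Acta2, Myh11, Mylk and Tagln). Krt14-low hormone-sensing cells numbered 1499 in Y541S giredestrant, 2074 in Y541S vehicle, 1034 in WT giredestrant and 627 in WT vehicle. Secretory cells numbered 1330 in Y541S giredestrant, 1553 in Y541S vehicle, 607 in WT giredestrant and 680 in WT vehicle. Basal cells numbered 3641 in Y541S giredestrant, 2951 in Y541S vehicle, 998 in WT giredestrant and 4832 in WT vehicle. A source label names mature luminal cells, but basal cells made up 12422 of the 25950 kept cells. Markers outside the 4 genes of each rule were present in their own class: 8 basal markers, among them Krt5, Trp63 and Krt14, the last used by the hormone-sensing split, summed to between 7806 and 9371 CPM (UMIs per 1000000 of the class) in basal cells and to between 20.1 and 184 CPM in Krt14-low hormone-sensing cells. In the Krt14-low hormone-sensing cells of Y541S giredestrant the 8 hormone-sensing markers not used by the rule summed to 3284 CPM, against 6101 CPM in Y541S vehicle, and the basal markers to 184 CPM in Y541S giredestrant, against 24.6 CPM in Y541S vehicle. Most of the hormone-sensing difference was Krt18, a luminal keratin that secretory cells also hold, with 1797 CPM in Y541S giredestrant and 4500 CPM in Y541S vehicle. The other 7 summed to 1487 CPM in Y541S giredestrant and 1601 CPM in Y541S vehicle. Among them Wnt4 was higher, at 574 CPM in Y541S giredestrant and 275 CPM in Y541S vehicle, as was Tnfsf11, at 269 CPM in Y541S giredestrant and 68.7 CPM in Y541S vehicle. The rest of them, Pgr, Cited1, Prom1, Ly6a and Gata3, were thus lower in sum in Y541S giredestrant. The nuclear RNA Malat1 was also higher there, at 45859 CPM in Y541S giredestrant against 15671 CPM in Y541S vehicle, and the same held in secretory cells, at 18963 CPM in Y541S giredestrant against 7577 CPM in Y541S vehicle, and in basal cells, at 16550 CPM in Y541S giredestrant against 8597 CPM in Y541S vehicle. The part of depth, of these markers and of Malat1 in the results below was not tested, and within 1 library per group a library and its treatment cannot be told apart.

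The genes followed their lists along the cell cycle in every library. Each cell was thinned to 3000 UMIs, and it was called S-scoring with 3 or more UMIs of the S-phase genes and G2/M-scoring with 3 or more of the G2/M genes, leaving out the gene being described. All 23 G2/M genes were higher in cells that were only G2/M-scoring than in cells that were only S-scoring, in all 4 libraries. Of the 20 S-phase genes, 15 were lower in G2/M-scoring cells in all 4 libraries. By the median over the 4 libraries E2f1, a transcription factor of the G1/S switch, lay farthest toward S phase, with a log2 ratio of G2/M-scoring over S-scoring cells of -2.45 in Y541S giredestrant, -2.52 in Y541S vehicle, -3.33 in WT giredestrant and -2.63 in WT vehicle. Hmmr, a spindle protein, lay farthest toward G2/M by the same median, at 6.20 in Y541S giredestrant, 5.36 in Y541S vehicle, 7.08 in WT giredestrant and 5.66 in WT vehicle. Within single libraries other genes lay farther out, among them Cdc6 at -2.85 in Y541S giredestrant and -2.69 in WT vehicle, Ccne2 at -5.09 in WT giredestrant, Ccnb1 at 6.26 in Y541S giredestrant, and Plk1 at 5.48 in Y541S vehicle and 7.39 in WT vehicle. These ratios rest on few UMIs and have no interval. In G2/M-scoring cells Cdc6 had 4 UMIs in Y541S giredestrant and 2 in WT vehicle, and Ccne2 had 1 in WT giredestrant. In S-scoring cells Ccnb1 had 4 UMIs in Y541S giredestrant, and Plk1 had 9 in Y541S vehicle and 1 in WT vehicle. Hmmr there had 5 UMIs in WT giredestrant and 29 in Y541S vehicle. Pclaf, a partner of the sliding clamp, sat on the G2/M side at 1.47 in Y541S giredestrant, 1.31 in Y541S vehicle, 1.45 in WT giredestrant and 1.81 in WT vehicle, although it is listed with the S-phase genes, and Rrm1, a subunit of ribonucleotide reductase, did so at between 0.11 and 0.64. Tyms, Rrm2 and Uhrf1 changed side between libraries, with ranges of -0.16 to 0.69, -0.28 to 0.68 and -1.13 to 0.11.

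**Figure D1:**
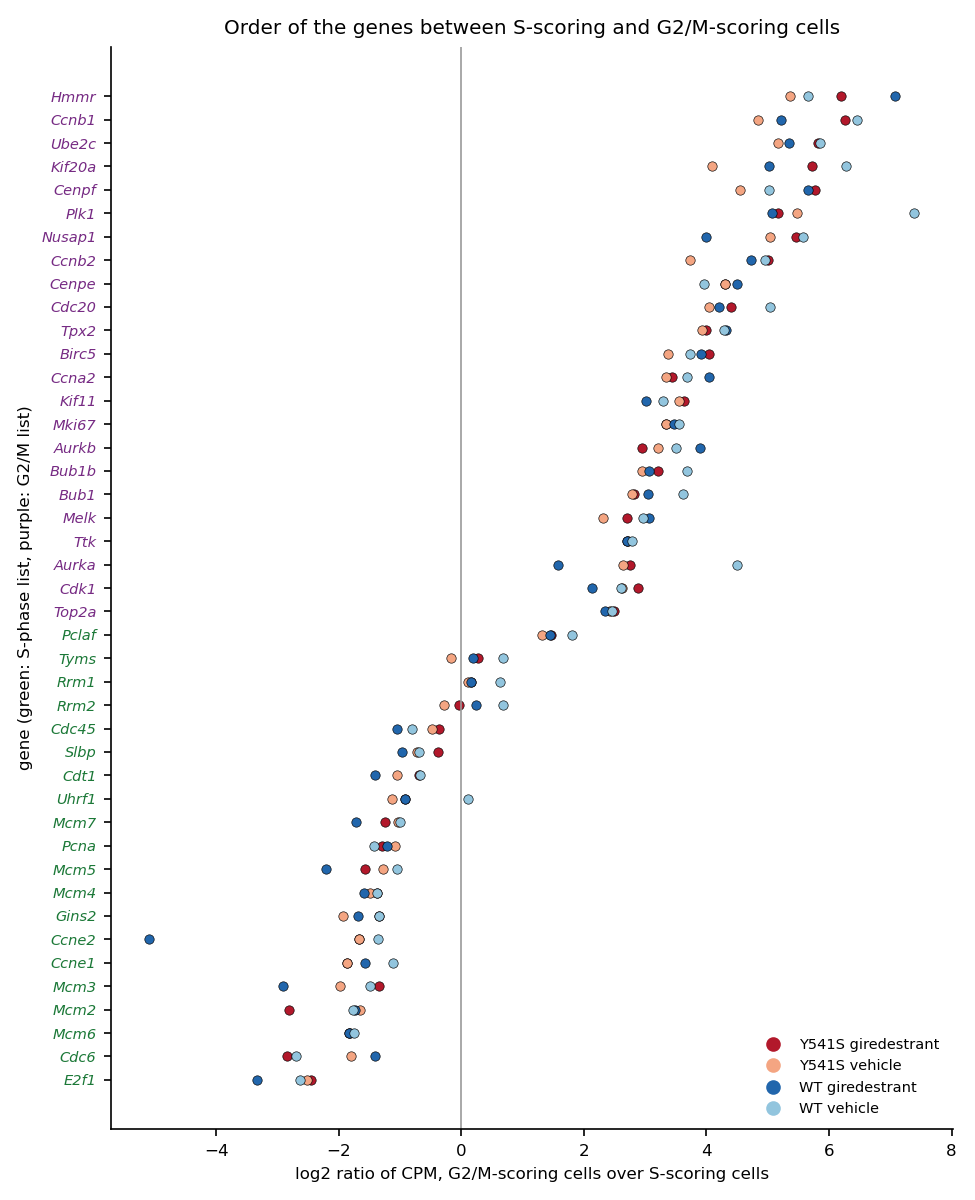
Log2 ratio of CPM in G2/M-scoring over S-scoring epithelial cells for each of the 43 genes (rows, ordered by the median), with 1 point per library and the gene left out of the scoring. The G2/M genes (purple names) all lie above 0, and 15 of 20 S-phase genes (green names) lie below 0 in all 4 libraries.

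All 43 genes were higher in cycling cells, meaning cells with either score, than in the remaining cells of the same library, but by very different amounts. The ratio was lowest for Slbp, which binds histone mRNAs, at 1.69 to 2.32 over the 4 libraries, and for Aurka, at 1.57 in the lowest library and 14.8 in the highest. Plk1 reached 233 in its highest library, and the smallest ratio of a G2/M gene in any library had a median over the 23 genes of 45.3, against 6.26 for the 20 S-phase genes. Cycling cells of the Krt14-low hormone-sensing class held 32.7% of the UMIs of the S-phase genes in Y541S giredestrant, 57.7% in Y541S vehicle, 42.5% in WT giredestrant and 51.8% in WT vehicle. For the G2/M genes these shares were 84.3% in Y541S giredestrant, 88.1% in Y541S vehicle, 74.0% in WT giredestrant and 83.5% in WT vehicle. In this class, cells outside the score thus held a larger share of the S-phase UMIs than of the G2/M UMIs. Cycling secretory cells held more of the S-phase UMIs of their class, 65.5% in Y541S giredestrant, 79.0% in Y541S vehicle, 71.9% in WT giredestrant and 69.8% in WT vehicle.

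Of the 3 classes, secretory cells had the largest share of cycling cells in every library. Their share was 25.4% (95% interval 22.9 to 28.1, 281 of 1106 cells) in Y541S giredestrant, 31.7% (29.4 to 34.1, 483 of 1524) in Y541S vehicle, 21.8% (18.6 to 25.4, 131 of 600) in WT giredestrant and 26.4% (23.0 to 30.0, 169 of 640) in WT vehicle. In secretory cells the share was thus lower with giredestrant than with vehicle in either genotype, with WT intervals that overlapped and Y541S intervals that did not. Krt14-low hormone-sensing cells were cycling in 6.14% (4.92 to 7.55, 83 of 1352) in Y541S giredestrant and 8.28% (7.12 to 9.57, 168 of 2028) in Y541S vehicle, and in 9.002% (7.32 to 10.9, 92 of 1022) in WT giredestrant and 5.34% (3.704 to 7.42, 33 of 618) in WT vehicle. Here the giredestrant library was the lower of its pair in Y541S and the higher in WT, and the intervals overlapped within either pair. With 2 or more UMIs of a list asked for in place of 3, the Y541S direction turned, at 14.6% in Y541S giredestrant and 14.3% in Y541S vehicle. Hormone-sensing cells that scored for both lists made up 1.11% in Y541S giredestrant, 2.76% in Y541S vehicle, 2.05% in WT giredestrant and 2.10% in WT vehicle. Those outside the score held 218 CPM of the S-phase genes in WT giredestrant and 108 CPM in WT vehicle. In Y541S they held 157 CPM with giredestrant and 140 CPM with vehicle. The part of these levels in the shares was not tested. Basal cells were cycling in 8.23% (7.27 to 9.28) in Y541S giredestrant, 8.30% (7.33 to 9.36) in Y541S vehicle, 8.84% (7.14 to 10.8) in WT giredestrant and 6.06% (5.40 to 6.78) in WT vehicle. The basal intervals overlapped in Y541S and did not in WT. Basal cells that scored for S phase alone made up 5.59% in WT giredestrant and 3.37% in WT vehicle. Basal cells outside the score held 247 CPM of the S-phase genes in WT giredestrant and 198 CPM in WT vehicle, and its part was not tested. Non-epithelial cells, few in number, had shares of 14.9% of 67 in Y541S giredestrant, 8.51% of 47 in Y541S vehicle, 12.3% of 57 in WT giredestrant and 5.61% of 107 in WT vehicle, so cells outside the epithelium scored too. Thinning left out 147 Krt14-low hormone-sensing and 224 secretory cells in Y541S giredestrant, 46 and 29 in Y541S vehicle, 12 and 7 in WT giredestrant and 9 and 40 in WT vehicle. Without thinning, the hormone-sensing shares were 28.8% in Y541S giredestrant, 58.1% in Y541S vehicle, 81.3% in WT giredestrant and 51.7% in WT vehicle, and median UMIs per cell were 9260 in Y541S giredestrant, 25121 in Y541S vehicle, 29583.5 in WT giredestrant and 28914 in WT vehicle.

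**Figure D2:**
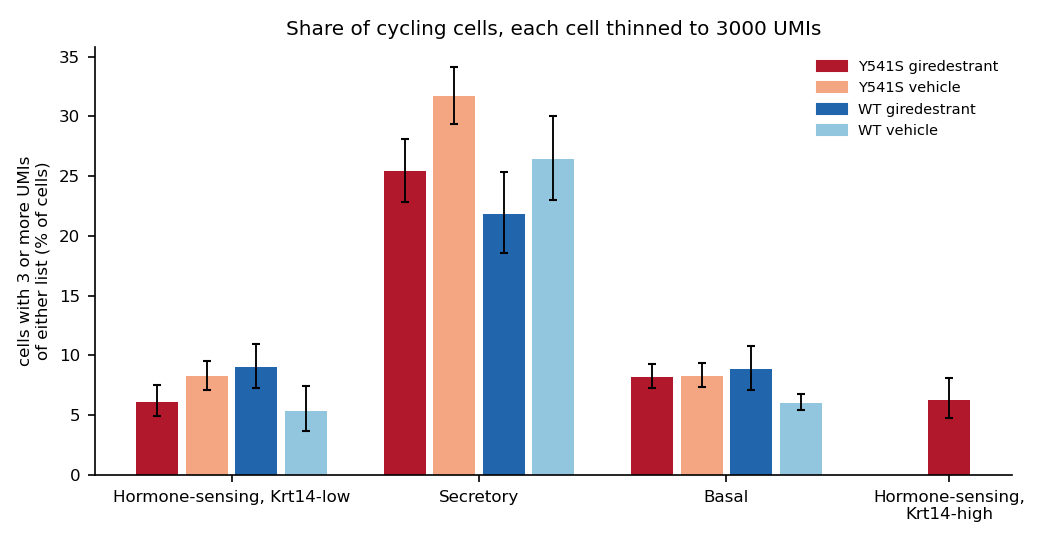
Share of cycling cells (% of cells, each thinned to 3000 UMIs) by class and library, with exact 95% binomial intervals. Secretory cells sit between 21.8% and 31.7%, and hormone-sensing and basal cells between 5.34% and 9.002%.

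The mix of phase scores among cycling secretory cells also differed between the Y541S libraries. Cells that scored for G2/M alone made up 30.6% (25.3 to 36.4) of them in Y541S giredestrant and 17.0% (13.7 to 20.6) in Y541S vehicle, and 15.3% (9.58 to 22.6) in WT giredestrant and 16.0% (10.8 to 22.4) in WT vehicle. The summed UMIs of the G2/M genes were 1.56 times those of the S-phase genes in secretory cells of Y541S giredestrant, 1.19 times in Y541S vehicle, 1.16 times in WT giredestrant and 0.991 times in WT vehicle. Relative log2 ratios (defined below) of giredestrant over vehicle in Y541S secretory cells had medians of -0.82 (S-phase) and -0.79 (G2/M). Mki67 lay at 0.64, Cenpe at 0.39 and Cenpf at 0.07. These genes count toward the G2/M score and sum, and their part in the mix was not tested. The G2/M-only share of cycling Krt14-low hormone-sensing cells had overlapping intervals, at 47.0% (35.9 to 58.3) in Y541S giredestrant and 35.7% (28.5 to 43.5) in Y541S vehicle.

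In Y541S glands, giredestrant against vehicle addresses the drug's effect on the cycle genes of mutant glands. In hormone-sensing and secretory cells most genes of both lists were lower with giredestrant, with Cdk1, Plk1 and Pclaf among the largest differences in either class, while Mki67 and the kinetochore genes Cenpe and Cenpf were not lower. In basal cells the lists were close to the median gene. UMIs were summed per class and library, and the relative log2 ratio is the log2 ratio of CPM minus the median over all genes with 20 or more UMIs in the pair, which was 0.34 in Krt14-low hormone-sensing cells, 0.01 in secretory cells and 0.07 in basal cells. A gene is called higher or lower at 1.5-fold or more on that scale, on which the median of all measured genes is 0, and all 43 genes were measured in every class.

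In Krt14-low hormone-sensing cells of Y541S glands, 13 of 20 S-phase genes and 19 of 23 G2/M genes were lower with giredestrant and none was higher, where 24.4% of all 16715 measured genes were lower and 23% higher. Median relative log2 ratios were -0.97 for the S-phase genes and -1.004 for the G2/M genes. Summed over a list, the S-phase genes held 213 CPM in Y541S giredestrant and 293 CPM in Y541S vehicle, and the G2/M genes 278 CPM in Y541S giredestrant and 385 CPM in Y541S vehicle. Rrm2, the regulated subunit of ribonucleotide reductase, had 4.22 CPM in Y541S giredestrant, against 13.5 CPM in Y541S vehicle, a relative log2 ratio of -2.02 (95% interval -2.40 to -1.66). Pclaf had 12.6 CPM with giredestrant and 33.5 CPM with vehicle (-1.75, -1.97 to -1.54). Among the helicase genes Mcm5 had 4.96 CPM with giredestrant and 9.98 CPM with vehicle (-1.35, -1.71 to -1.01), and Pcna, the sliding clamp, had 15.4 CPM with giredestrant and 28.5 CPM with vehicle (-1.23, -1.43 to -1.04). The transcription factor E2f1 at -0.16 (-0.76 to 0.42) and the cyclin Ccne2 at -0.30 (-0.80 to 0.18) were within 1.5-fold and had intervals that included 0.

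Among the G2/M genes of the same cells, Aurka, Cdk1 and Plk1 had the lowest ratios. Aurka had 3.41 CPM in Y541S giredestrant and 14.9 CPM in Y541S vehicle (-2.47, -2.90 to -2.08), Cdk1 9.56 CPM with giredestrant and 28.0 CPM with vehicle (-1.89, -2.14 to -1.65) and Plk1 2.36 CPM with giredestrant and 5.89 CPM with vehicle (-1.66, -2.19 to -1.18). Other kinase genes, named after their values were seen, lay higher, with Aurkb at -0.79, Ttk at -0.68 and Bub1b at -0.52. Ccnb1, the mitotic cyclin, had 6.64 CPM with giredestrant and 10.6 CPM with vehicle (-1.01, -1.32 to -0.71). Cdc20, which activates the anaphase-promoting complex, had 10.9 CPM with giredestrant and 15.6 CPM with vehicle (-0.86, -1.10 to -0.62), and Top2a, the topoisomerase that disentangles sister chromatids, 37.4 CPM with giredestrant and 46.7 CPM with vehicle (-0.66, -0.79 to -0.53). Mki67 went the other way, with 34.7 CPM in Y541S giredestrant and 20.3 CPM in Y541S vehicle (0.43, 0.28 to 0.58), short of 1.5-fold. Cenpe at 0.22 (0.01 to 0.42) and Cenpf at 0.14 (0.00 to 0.28), named after their values were seen, were close to the median gene.

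Levels inside cycling cells were read as well. In cycling hormone-sensing cells, chosen without the gene itself, Cdk1 was at 109 CPM (92.4 to 129) in Y541S giredestrant and 219 CPM (207 to 230) in Y541S vehicle, and Pclaf at 119.6 CPM (102 to 139.8) in Y541S giredestrant and 267 CPM (255 to 281) in Y541S vehicle. Mki67 was at 353 CPM (322 to 387) in Y541S giredestrant and 148 CPM (139 to 158) in Y541S vehicle, and Cenpe at 174 CPM (152 to 198) in Y541S giredestrant and 97.0 CPM (89.5 to 105) in Y541S vehicle. Among the UMIs of cycling cells, Cdk1 and Pclaf thus took a lower share and Mki67 and Cenpe a higher share in the giredestrant library. Pclaf and Cenpe were picked by their values. Over the whole list, cycling hormone-sensing cells held 851 CPM of the S-phase genes in Y541S giredestrant and 1477 CPM in Y541S vehicle. For the G2/M genes they held 2807 CPM in Y541S giredestrant and 2917 CPM in Y541S vehicle.

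Secretory cells of Y541S glands had 15 of 20 S-phase genes and 14 of 23 G2/M genes lower with giredestrant, and Mki67 was the 1 gene of the 43 that was higher, where 18.4% of all 15225 measured genes were lower and 16.4% higher. Median relative log2 ratios were -0.82 and -0.79. Pclaf had 53.2 CPM in Y541S giredestrant and 131 CPM in Y541S vehicle (-1.30, -1.43 to -1.18), Cdc45, a helicase cofactor, 5.92 CPM with giredestrant and 13.2 CPM with vehicle (-1.16, -1.56 to -0.79), and Tyms, which makes thymidylate, 23.7 CPM with giredestrant and 49.3 CPM with vehicle (-1.06, -1.25 to -0.87). Mcm5 had 20.9 CPM with giredestrant and 43.1 CPM with vehicle (-1.05, -1.26 to -0.85) and Pcna 36.6 CPM with giredestrant and 67.1 CPM with vehicle (-0.88, -1.04 to -0.73). E2f1 at -0.56 and Ccne2 at -0.02 were within 1.5-fold. Plk1 had 3.55 CPM with giredestrant and 10.5 CPM with vehicle (-1.57, -2.07 to -1.10), Cdk1 23.6 CPM with giredestrant and 67.9 CPM with vehicle (-1.53, -1.72 to -1.35), Ccnb1 9.97 CPM with giredestrant and 25.1 CPM with vehicle (-1.34, -1.63 to -1.05) and Cdc20 20.2 CPM with giredestrant and 42.995 CPM with vehicle (-1.10, -1.30 to -0.89). Top2a, at 113 CPM with giredestrant and 157 CPM with vehicle (-0.48), stayed within 1.5-fold. Mki67 had 149 CPM in Y541S giredestrant and 95.3 CPM in Y541S vehicle (0.64, 0.55 to 0.73). The 8 secretory markers not used by the class rule summed to 4889 CPM in these cells of Y541S giredestrant and 1681 CPM in Y541S vehicle. That difference was the milk protein gene Csn2, with 3334 CPM in Y541S giredestrant and 10.2 CPM in Y541S vehicle. The other 7 summed to 1555 CPM in Y541S giredestrant and 1671 CPM in Y541S vehicle. Among them Aldh1a3 was lower, at 115 CPM in Y541S giredestrant and 343 CPM in Y541S vehicle, as was Ltf, at 37.2 CPM in Y541S giredestrant and 110.1 CPM in Y541S vehicle. The rest of them, Cd14, Lalba, Mfge8, Rspo1 and Hey1, were thus higher in sum in Y541S giredestrant. The part of these markers in the result was not tested.

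Basal cells of Y541S glands showed little of this. Ccne2, which partners Cdk2 at the start of S phase, was the 1 S-phase gene called, with 5.09 CPM in Y541S giredestrant and 2.74 CPM in Y541S vehicle (0.82, 0.44 to 1.22). Mki67 was the 1 G2/M gene called, with 38.4 CPM with giredestrant and 17.9 CPM with vehicle (1.03, 0.89 to 1.18). None of the 43 was lower, where 12.1% of all 16930 measured genes were lower and 14.3% higher, and the medians were -0.02 and -0.05. Tyms lay at -0.57 (-0.77 to -0.37), Mcm3, a helicase subunit, at 0.54 (0.29 to 0.79) and Ube2c, a ubiquitin-conjugating enzyme of the anaphase-promoting complex, at -0.52 (-0.66 to -0.39). Top2a at 0.52, Cdk1 at -0.52, Ccnb1 and Cdc20 at -0.38 each, Pcna at -0.26, Mcm5 at 0.09 and E2f1 at -0.09 were also within 1.5-fold.

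**Figure D3:**
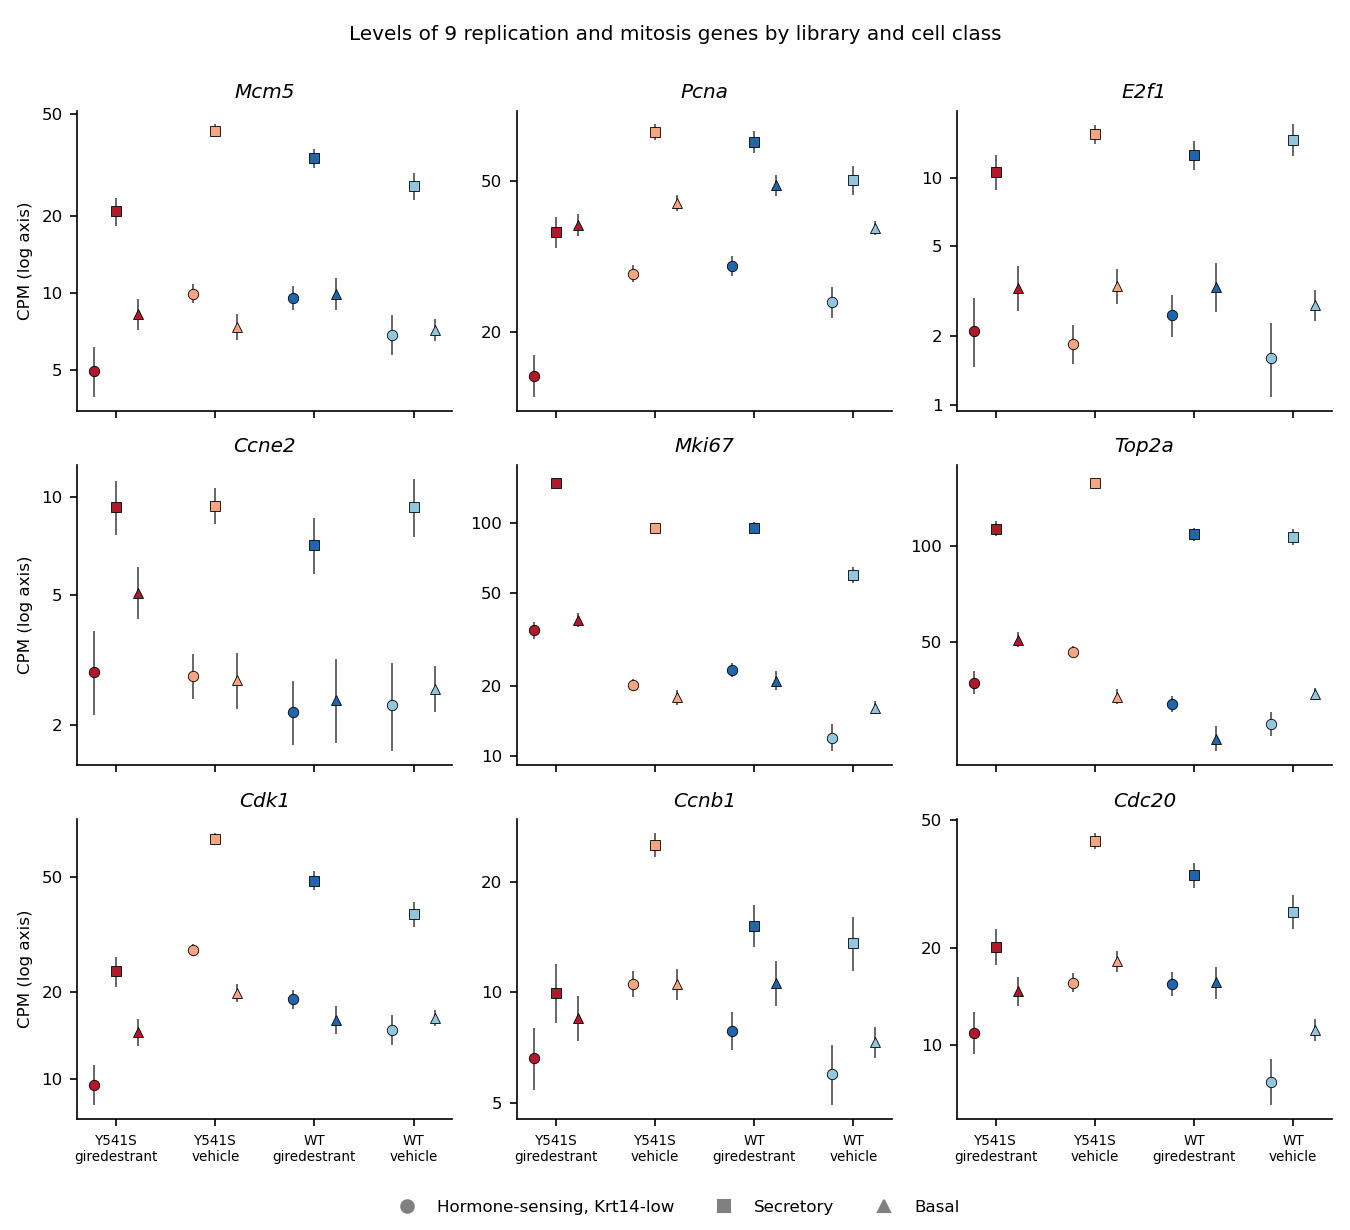
CPM (log axes) of 9 genes in each library, for Krt14-low hormone-sensing (circles), secretory (squares) and basal cells (triangles), with exact 95% Poisson intervals. Cdk1 and Mcm5 are lower in Y541S giredestrant than in Y541S vehicle in hormone-sensing and secretory cells, while Mki67 is higher in all 3 classes.

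In WT glands, giredestrant against vehicle gave medians close to 0 and a few genes with large differences. The shift of the median gene was 0.44 in Krt14-low hormone-sensing cells, 0.06 in secretory cells and 0.15 in basal cells. In the hormone-sensing cells 3 of 20 S-phase genes were higher and 1 lower, and 3 of 23 G2/M genes were higher and 2 lower, where 22.2% of all 16072 measured genes were higher and 22.1% lower. These counts lie below the shares over all genes. Medians were 0.21 and 0.11. Summed over a list, the S-phase genes held 336 CPM in WT giredestrant and 207 CPM in WT vehicle, and the G2/M genes 345 CPM in WT giredestrant and 222 CPM in WT vehicle, so the sums were higher with giredestrant here and lower with giredestrant in Y541S. Relative to the median gene the sums lay at 0.26 (0.21 to 0.31) and 0.20 (0.15 to 0.25). Malat1 was lower with giredestrant in WT, at 17600 CPM in WT giredestrant and 26325 CPM in WT vehicle in hormone-sensing cells, 9105 CPM in WT giredestrant and 12915 CPM in WT vehicle in secretory cells, and 9584 CPM in WT giredestrant and 13975 CPM in WT vehicle in basal cells, and its part in these ratios was not tested.

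The genes with the widest differences in WT hormone-sensing cells were helicase genes and mitotic genes. Gins2, of the GINS complex of the helicase, had 23.5 CPM in WT giredestrant and 7.58 CPM in WT vehicle (1.19, 0.94 to 1.46), Mcm6 43.2 CPM with giredestrant and 14.0 CPM with vehicle (1.18, 0.99 to 1.38) and Mcm4 30.1 CPM with giredestrant and 10.4 CPM with vehicle (1.09, 0.87 to 1.32). Aurka had 42.9 CPM in WT giredestrant and 7.80 CPM in WT vehicle (2.02, 1.77 to 2.27), and Cenpe, a kinetochore motor, 14.6 CPM with giredestrant and 5.29 CPM with vehicle (1.02, 0.71 to 1.35). Kif11, a motor that pushes spindle poles apart, was lower, with 10.6 CPM with giredestrant and 19.4 CPM with vehicle (-1.32, -1.53 to -1.10). The other calls, listed after their values were seen, were Ttk at 0.61, Nusap1 at -0.61 and Rrm2 at -0.92. Mcm5 at 0.04, Pcna at -0.12, E2f1 at 0.19, Ccne2 at -0.51, Mki67 at 0.52, Top2a at -0.23, Cdk1 at -0.09, Ccnb1 at -0.04 and Cdc20 at 0.57 were within 1.5-fold.

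Most of the Aurka, Mcm6, Mcm4 and Gins2 difference sat outside cycling cells. In hormone-sensing cells that were not cycling, Aurka was at 40.7 CPM (38.5 to 43.003) in WT giredestrant and 5.38 CPM (4.34 to 6.59) in WT vehicle, and at 1.80 CPM (1.17 to 2.63) in Y541S giredestrant and 12.1 CPM (11.2 to 13.2) in Y541S vehicle. Mcm6 was there at 32.4 CPM in WT giredestrant and 7.99 CPM in WT vehicle, Mcm4 at 25.9 CPM in WT giredestrant and 6.97 CPM in WT vehicle, and Gins2 at 19.8 CPM in WT giredestrant and 4.62 CPM in WT vehicle. Only 15.7% of the Aurka UMIs of WT giredestrant hormone-sensing cells came from cycling cells, against 36.3% in WT vehicle. In secretory cells of the same WT giredestrant library that share was 89.0%, and non-cycling secretory cells held 1.06 CPM of Aurka. Kif11 also differed below the score, with 2.68 CPM in non-cycling hormone-sensing cells of WT giredestrant and 9.49 CPM in those of WT vehicle.

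Secretory cells of WT glands had no S-phase gene higher or lower and 3 of 23 G2/M genes higher, where 9.48% of all 14530 measured genes were higher and 10.7% lower. Medians were 0.00 and 0.18. Ube2c had 69.3 CPM in WT giredestrant and 41.9 CPM in WT vehicle (0.67, 0.51 to 0.84), Aurka 6.71 CPM with giredestrant and 4.08 CPM with vehicle (0.66, 0.13 to 1.22) and Mki67 96.0 CPM with giredestrant and 60.3 CPM with vehicle (0.62, 0.48 to 0.75). Cdc45 at -0.56, Pclaf at -0.54, Ccne2 at -0.45, Mcm5 at 0.31, Pcna at 0.28, E2f1 at -0.28, Top2a at -0.03, Cdk1 at 0.33, Ccnb1 at 0.10 and Cdc20 at 0.32 were within 1.5-fold. In basal cells 2 S-phase genes were higher and 1 lower, and 2 G2/M genes were lower, where 14.8% of all 17589 measured genes were higher and 14.3% lower. Medians there were 0.03 and 0.02. Ccne1, a G1/S cyclin, had 8.10 CPM in WT giredestrant and 4.36 CPM in WT vehicle (0.74, 0.44 to 1.03), and Pclaf 16.3 CPM with giredestrant and 25.2 CPM with vehicle (-0.78, -0.96 to -0.61). The remaining S-phase call, Cdc6, a licensing factor named after its value was seen, had low levels, 1.37 CPM with giredestrant and 0.776 CPM with vehicle (0.67, -0.07 to 1.39). Nusap1, which bundles spindle microtubules, had 6.06 CPM with giredestrant and 8.74 CPM with vehicle (-0.68, -0.98 to -0.39), and Top2a 25.003 CPM with giredestrant and 34.5 CPM with vehicle (-0.62, -0.76 to -0.47). Ccnb1 at 0.38, Cdc20 at 0.34, Mcm5 at 0.31, Ccne2 at -0.27, Mki67 at 0.24, Pcna at 0.22, Cdk1 at -0.18 and E2f1 at 0.12 were within 1.5-fold.

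Set side by side, the effects of giredestrant in the genotypes rest on 4 separate libraries. In Krt14-low hormone-sensing cells, 19 of 20 S-phase genes and 22 of 23 G2/M genes had a lower relative log2 ratio in Y541S than in WT, with median differences of -1.11 and -1.08, where 52.2% of all 15717 genes measured in both pairs had a lower ratio in Y541S. Secretory cells gave 19 of 20 and 21 of 23, with -0.84 and -1.04, where the share over all 14311 genes was 50.2%. Basal cells gave 12 of 20 and 14 of 23, with -0.06 and -0.10, near the 50.4% of all 16635 genes. The difference was widest for Aurka in hormone-sensing cells, at -4.49, since its ratio was -2.47 in Y541S and 2.02 in WT. With 1 library per group this difference between genotypes has no test.

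**Figure D4:**
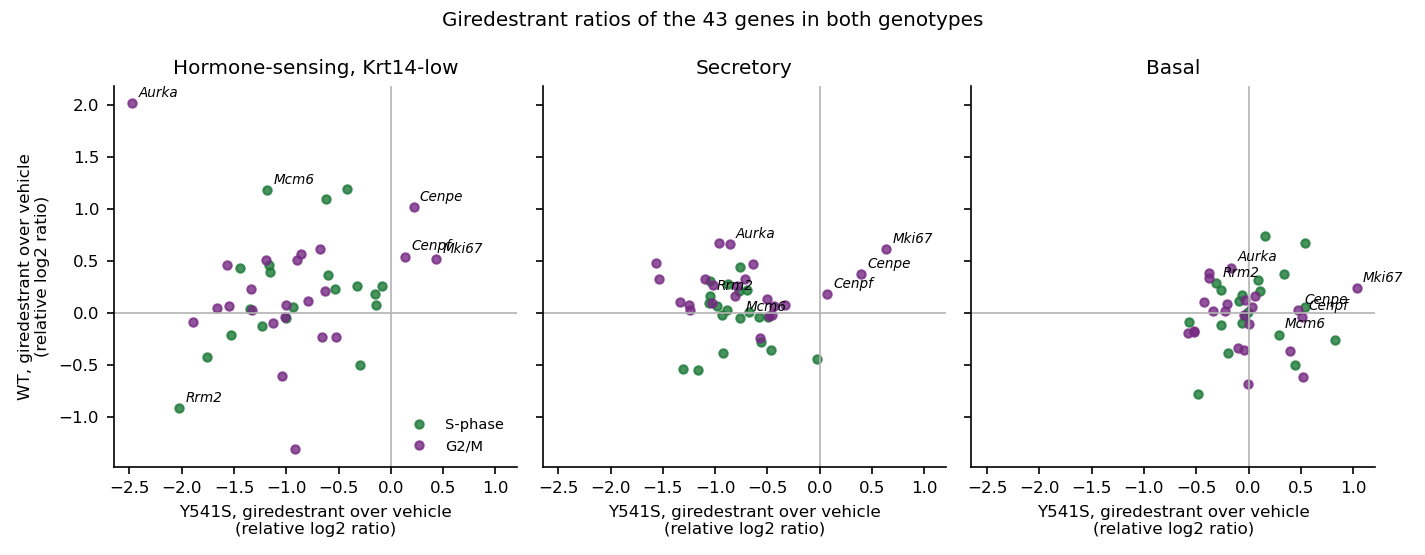
Relative log2 ratio of giredestrant over vehicle in Y541S (x axis) against WT (y axis) for each S-phase gene (green) and G2/M gene (purple) in 3 classes. In hormone-sensing and secretory cells all points but Mki67, Cenpe and Cenpf lie left of 0 on the x axis, and Aurka stands at -2.47 and 2.02 in the hormone-sensing panel.

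Under vehicle, Y541S against WT addresses the effect of the mutation in hormone-treated glands. The G2/M genes were higher in Y541S in hormone-sensing and secretory cells, and the S-phase genes by less. Malat1 was lower in Y541S vehicle than in WT vehicle, at 15671 CPM in Y541S vehicle and 26325 CPM in WT vehicle in hormone-sensing cells, 7577 CPM in Y541S vehicle and 12915 CPM in WT vehicle in secretory cells, and 8597 CPM in Y541S vehicle and 13975 CPM in WT vehicle in basal cells, and its part in these ratios was not tested. Among the 43 in Krt14-low hormone-sensing cells, 4 of 20 S-phase genes and 19 of 23 G2/M genes were higher and none was lower, where 11.7% of all 16221 measured genes were higher and 11.4% lower, and the median gene was shifted by 0.13. Medians were 0.39 and 0.70. Mcm6 had 26.5 CPM in Y541S vehicle and 14.0 CPM in WT vehicle (0.79, 0.60 to 0.99), and Mcm7 and Mcm3 lay at 0.72 each. Bub1, a spindle checkpoint kinase, had 5.68 CPM in Y541S and 2.46 CPM in WT (1.08, 0.63 to 1.56), Cenpe 12.2 CPM in Y541S and 5.29 CPM in WT (1.07, 0.77 to 1.39) and Cenpf, also of the kinetochore, 26.3 CPM in Y541S and 11.9 CPM in WT (1.02, 0.81 to 1.23). Cdc20 at 0.89, Cdk1 at 0.79, Ccnb1 at 0.69, Mki67 at 0.63 and Top2a at 0.62 were higher too. Mcm5 at 0.41, Ccne2 at 0.17, Pcna at 0.12 and E2f1 at 0.08 were within 1.5-fold. Kif11, chosen after its value was seen, was the 1 G2/M gene below 0, at -0.50 (-0.68 to -0.32), and its level in non-cycling cells was 3.93 CPM in Y541S vehicle and 9.49 CPM in WT vehicle.

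In secretory cells under vehicle, 3 of 20 S-phase genes and 16 of 23 G2/M genes were higher in Y541S and none was lower, where 6.65% of all 15079 measured genes were higher and 11.5% lower. All 43 genes lay above 0, with medians of 0.43 and 0.66. Ube2c had 110.2 CPM in Y541S vehicle and 41.9 CPM in WT vehicle (1.42, 1.28 to 1.57), Plk1 10.5 CPM in Y541S and 5.05 CPM in WT (1.08, 0.65 to 1.54) and Ttk, a spindle checkpoint kinase, 6.54 CPM in Y541S and 3.21 CPM in WT (1.05, 0.51 to 1.64). Rrm2 had 27.9 CPM in Y541S and 16.5 CPM in WT (0.78, 0.54 to 1.03), Mcm5 43.1 CPM in Y541S and 26.1 CPM in WT (0.75, 0.55 to 0.95) and Rrm1 66.8 CPM in Y541S and 43.7 CPM in WT (0.64, 0.49 to 0.79). Ccnb1 at 0.91, Cdk1 at 0.89, Cdc20 at 0.76, Mki67 at 0.69 and Top2a at 0.59 were higher, and Pcna at 0.45, E2f1 at 0.11 and Ccne2 at 0.04 were within 1.5-fold. Basal cells had 1 S-phase gene and 3 G2/M genes higher and none lower, where 7.41% of all 17892 measured genes were higher and 12% lower, with medians of 0.11 and 0.31. These were Ccne1 with 7.46 CPM in Y541S vehicle and 4.36 CPM in WT vehicle (0.77, 0.52 to 1.02), Cdc20 with 18.2 CPM in Y541S and 11.1 CPM in WT (0.71, 0.55 to 0.86), Ube2c with 37.7 CPM in Y541S and 24.7 CPM in WT (0.60, 0.50 to 0.71) and Kif20a, a cytokinesis motor, with 5.27 CPM in Y541S and 3.48 CPM in WT (0.59, 0.30 to 0.88). Rrm2 at 0.47, Uhrf1 at 0.31, Ccnb1 at 0.52, Cdk1 at 0.28, E2f1 at 0.28, Pcna at 0.21, Mki67 at 0.14, Ccne2 at 0.08, Mcm5 at 0.04 and Top2a at -0.03 were within 1.5-fold.

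With giredestrant in both, Y541S had many S-phase genes lower than WT in hormone-sensing cells and some G2/M genes higher in basal cells. These ratios share the giredestrant libraries with the comparisons above. Malat1 was higher in Y541S giredestrant, at 45859 CPM in hormone-sensing, 18963 CPM in secretory and 16550 CPM in basal cells, against 17600 CPM, 9105 CPM and 9584 CPM in WT giredestrant, and its part in the ratios was not tested. Krt14-low hormone-sensing cells had 12 of 20 S-phase genes lower, and 8 of 23 G2/M genes lower and 1 higher, where 23.2% of all 16467 measured genes were lower and 23.7% higher. Medians were -0.85 and -0.39. Aurka had 3.41 CPM in Y541S giredestrant and 42.9 CPM in WT giredestrant (-3.67, -4.08 to -3.28), Mcm6 14.8 CPM in Y541S and 43.2 CPM in WT (-1.56, -1.76 to -1.36), Mcm4 12.2 CPM in Y541S and 30.1 CPM in WT (-1.32, -1.55 to -1.10) and Tyms 8.004 CPM in Y541S and 19.7 CPM in WT (-1.32, -1.60 to -1.04). Birc5, of the chromosomal passenger complex, had 11.3 CPM in Y541S and 24.7 CPM in WT (-1.15, -1.38 to -0.91). Cdk1 at -1.001 and Mcm5 and Pcna at -0.97 each were lower. Mki67 at 0.56, Ccne2 at 0.40, Top2a at 0.20, E2f1 at -0.25, Ccnb1 at -0.26 and Cdc20 at -0.52 were within 1.5-fold.

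Secretory cells with giredestrant had 5 of 20 S-phase genes lower, and 5 of 23 G2/M genes lower and 2 higher in Y541S, where 18.2% of all 14757 measured genes were lower and 16.8% higher, with medians of -0.36 and -0.27. Summed over the list, the G2/M genes lay on the other side of the median gene, at 0.05 (0.01 to 0.09). Pcna had 36.6 CPM in Y541S giredestrant and 63.2 CPM in WT giredestrant (-0.70, -0.86 to -0.53), with Gins2 at -0.66, Tyms at -0.62 and Mcm5 at -0.60. Cdk1 had 23.6 CPM in Y541S and 48.6 CPM in WT (-0.95, -1.15 to -0.75), Plk1 3.55 CPM in Y541S and 7.31 CPM in WT (-0.95, -1.50 to -0.42) and Kif20a 4.56 CPM in Y541S and 8.52 CPM in WT (-0.81, -1.29 to -0.34), and Cdc20 lay at -0.64. Mki67 at 0.73 (0.62 to 0.83) and Cenpe at 0.59 were higher, both among the longest transcripts of the 43 (lengths are described last), while Ccne2 at 0.48, Top2a at 0.15, E2f1 at -0.15 and Ccnb1 at -0.51 were within 1.5-fold. In basal cells 3 S-phase and 7 G2/M genes were higher in Y541S and none was lower, where 16.5% of all 16419 measured genes were higher and 16.5% lower, with medians of 0.07 and 0.33. Top2a had 51.0 CPM in Y541S giredestrant and 25.003 CPM in WT giredestrant (1.13, 0.98 to 1.29), Kif11 11.7 CPM in Y541S and 5.91 CPM in WT (1.09, 0.78 to 1.42) and Mki67 38.4 CPM in Y541S and 21.1 CPM in WT (0.97, 0.80 to 1.14). Ccne2 had 5.09 CPM in Y541S and 2.39 CPM in WT (1.19, 0.69 to 1.71), Cdt1, a licensing factor, 6.39 CPM in Y541S and 3.77 CPM in WT (0.87, 0.46 to 1.29) and Mcm6 27.6 CPM in Y541S and 18.2 CPM in WT (0.70, 0.51 to 0.89). Pcna at -0.24, Ccnb1 at -0.21, Mcm5 at -0.16, E2f1 at 0.09, Cdk1 at -0.03 and Cdc20 at 0.01 were within 1.5-fold.

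**Figure D5:**
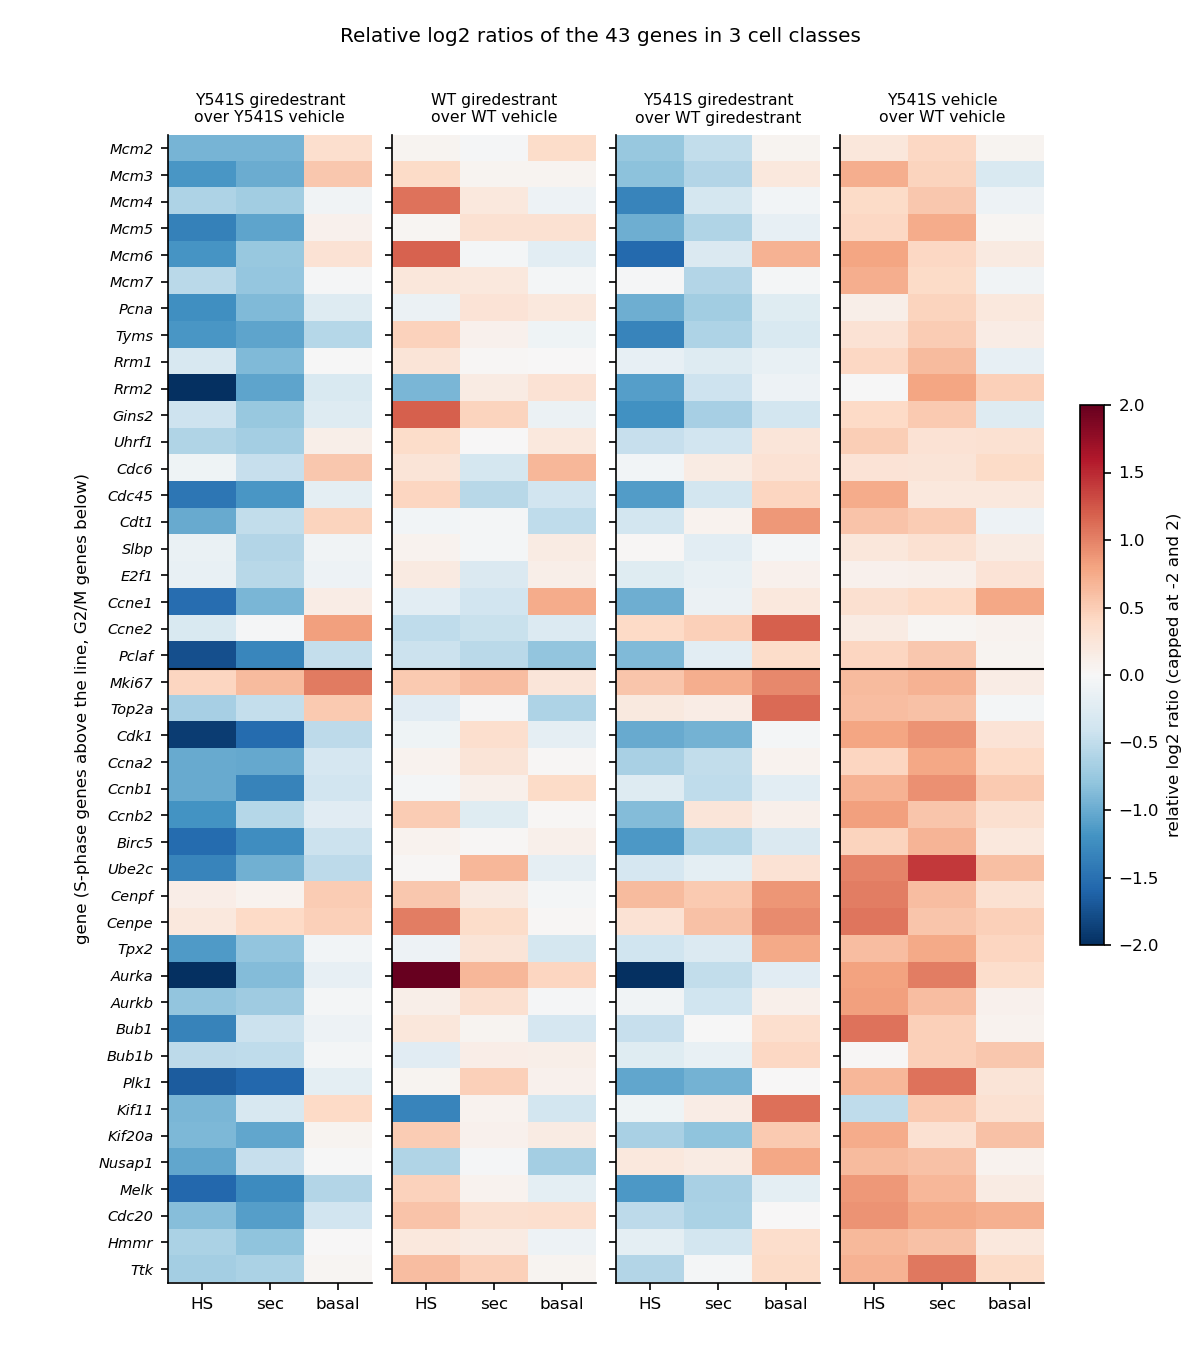
Relative log2 ratio of each of the 43 genes (rows) in Krt14-low hormone-sensing (HS), secretory (sec) and basal cells for 4 comparisons, with colours capped at -2 and 2. For giredestrant over vehicle in Y541S the HS and sec columns are mostly blue (lower), and for Y541S over WT under vehicle the G2/M rows are mostly red (higher), while Mki67, Cenpe and Cenpf are not blue in the Y541S giredestrant pair.

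Hormone-sensing cells with Krt14 at 3 or more UMIs per 10000 were numerous in 1 library only, with 980 cells in Y541S giredestrant, 22 in Y541S vehicle, 9 in WT giredestrant and 15 in WT vehicle, so they were compared with the Krt14-low cells of their own library. Of the S-phase genes 9 of 20 were higher in the Krt14-high cells and none was lower, and of the G2/M genes 3 were higher and 2 lower, where 20.9% of all 15026 measured genes were higher and 20.2% lower. Medians were 0.47 and 0.01, with the median gene shifted by -0.26. Summed over a list, the S-phase genes held 232 CPM in Krt14-high cells and 213 CPM in Krt14-low cells. The G2/M genes held 262 CPM in Krt14-high cells and 278 CPM in Krt14-low cells. The 8 basal markers, Krt14 included, summed to 2813 CPM in Krt14-high cells and 184 CPM in Krt14-low cells, and the 8 hormone-sensing markers to 1148 CPM in Krt14-high cells and 3284 CPM in Krt14-low cells. Malat1 was at 26906 CPM in Krt14-high cells and 45859 CPM in Krt14-low cells, and the part of these in the result was not tested. Mcm3 had 10.7 CPM in Krt14-high cells and 6.76 CPM in Krt14-low cells (0.93, 0.52 to 1.34), Pcna 23.9 CPM in Krt14-high cells and 15.4 CPM in Krt14-low cells (0.90, 0.63 to 1.17), Mcm6 22.8 CPM in Krt14-high cells and 14.8 CPM in Krt14-low cells (0.88, 0.61 to 1.16) and Mcm5 6.93 CPM in Krt14-high cells and 4.96 CPM in Krt14-low cells (0.74, 0.24 to 1.24). Top2a lay at 0.73, Cdk1 at 0.53, E2f1 at 0.48, Mki67 at 0.30, Ccnb1 at -0.17, Ccne2 at -0.20 and Cdc20 at -0.57. The share of cycling cells was 6.27% (4.73 to 8.12) in Krt14-high and 6.14% (4.92 to 7.55) in Krt14-low cells. The higher S-phase levels relative to the median gene thus came without a detectable difference in that share at this depth.

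Other genes of the same processes were read from lists of 45 replication genes, 47 mitosis genes and 18 transcription regulators of the cycle (E2F, retinoblastoma, MuvB, B-MYB and FOXM1 genes). With giredestrant in Y541S, 20 of 45 replication genes were lower and 2 higher in Krt14-low hormone-sensing cells (median -0.53), 23 lower and none higher in secretory cells (-0.59), and 5 lower and 2 higher in basal cells (-0.11). Over all measured genes 24.4%, 18.4% and 12.1% were lower and 23%, 16.4% and 14.3% higher in these classes. Cdc7, the kinase that fires origins, went against the list in the hormone-sensing cells, with 30.2 CPM in Y541S giredestrant and 6.53 CPM in Y541S vehicle (1.87, 1.67 to 2.07), while Prim1, a primase subunit, had 5.15 CPM with giredestrant and 13.8 CPM with vehicle (-1.77, -2.11 to -1.44). Dut, which clears dUTP, had 35.5 CPM in Y541S giredestrant and 103 CPM in Y541S vehicle in secretory cells (-1.55), with Rpa3, of the single-strand binding complex, at -1.53 there. Of the mitosis genes 27 of 47 were lower in hormone-sensing cells (-0.73), 22 in secretory cells (-0.48) and 6 in basal cells (-0.10), and none was higher. Ndc80, of the kinetochore, lay at -1.38 and Pbk, a mitotic kinase, at -1.36 in hormone-sensing cells, and Cks2, a small partner of the mitotic kinase, had 48.7 CPM in Y541S giredestrant and 135 CPM in Y541S vehicle in secretory cells (-1.48). Of the 18 regulators 3 were lower and 2 higher in hormone-sensing cells (median 0.06), 4 lower in secretory cells (-0.10), and 1 lower and 1 higher in basal cells (-0.04). The basal counts of all 3 lists and those of the regulators lie near or below the shares over all genes. Lin37, of MuvB, lay at -0.97 and Tfdp2, a partner of E2F, at 0.82 in hormone-sensing cells, and Mybl2, the B-MYB gene, at -0.72 in secretory cells.

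In WT glands with giredestrant, 8 of 45 replication genes were higher and 1 lower in Krt14-low hormone-sensing cells (median 0.17), with Orc5, of the origin recognition complex, at 0.90 and Pola2, of DNA polymerase alpha, at 0.79. Of the mitosis genes there 10 were higher and 5 lower (0.10), with Zwilch, a checkpoint gene, at 1.30 and Mad2l1, another, at -1.28, and of the regulators 3 were higher and 4 lower (0.10), with the MuvB genes Lin9 at 1.13 and Lin54 at -1.10. Secretory cells had 1 replication gene higher and 2 lower (0.03), 2 mitosis genes higher (0.01) and 1 regulator lower (-0.18), with the helicase genes Gins3 at -0.87 and Gins4 at 0.77. Basal cells had 2 replication genes higher and 1 lower (0.08), 3 mitosis genes lower (-0.01), and 1 regulator higher and 1 lower (-0.15), with Fen1, the flap nuclease, at 0.99, Pbk at -0.85 and Tfdp2 at 0.69. All these WT counts lie near or below the shares over all genes, which were 22.2%, 9.48% and 14.8% higher and 22.1%, 10.7% and 14.3% lower in the 3 classes. Under vehicle, Y541S against WT gave 9 of 45 replication genes and 26 of 47 mitosis genes higher in hormone-sensing cells (medians 0.25 and 0.63), 2 and 18 in secretory cells (0.30 and 0.50), and none and 7 in basal cells (-0.04 and 0.23), with no gene of either list lower. Over all genes 11.7%, 6.65% and 7.41% were higher, so the secretory and basal counts of the replication genes lie below the share. Kif2c, a microtubule depolymerase, stood highest in hormone-sensing cells, with 5.54 CPM in Y541S vehicle and 2.03 CPM in WT vehicle (1.32, 0.83 to 1.85), Kif14, a cytokinesis motor, in secretory cells at 1.003, and Cks2 in basal cells at 0.90. Of the regulators 1 was higher in each class, with medians of 0.17, 0.16 and 0.12, and E2f8, an E2F repressor, had 10.2 CPM in Y541S vehicle and 5.02 CPM in WT vehicle in basal cells (1.02, 0.80 to 1.25). With giredestrant in both genotypes, Y541S had 15, 11 and 9 replication genes lower and 2, 1 and 2 higher in hormone-sensing, secretory and basal cells (medians -0.38, -0.31 and -0.25). Of the mitosis genes 12, 3 and 1 were lower and 4, none and 3 higher (-0.14, -0.05 and 0.22), and of the regulators 2, none and none were lower and 4, 3 and 3 higher (0.14, 0.04 and 0.17, the last over 17 measured). Over all genes 23.2%, 18.2% and 16.5% were lower and 23.7%, 16.8% and 16.5% higher, and apart from the replication genes lower in hormone-sensing and secretory cells these counts lie near or below those shares. Cdc7 in hormone-sensing cells lay at 2.23 (2.004 to 2.47), and Tk1, thymidine kinase, in secretory cells at -1.27.

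The 3 genes above the median gene in hormone-sensing and secretory cells of Y541S giredestrant were those with the longest transcripts. Mki67, Cenpf and Cenpe are the 3 of the 43 with coding transcripts of 6000 bases or more, a length chosen after the data were seen. Their median relative log2 ratio for giredestrant over vehicle in Y541S was 0.22 in Krt14-low hormone-sensing cells, 0.39 in secretory cells and 0.51 in basal cells, and that of the 40 shorter genes was -1.01, -0.84 and -0.06. Over the 43 genes, which share 2 libraries, Spearman's rho between transcript length and the ratio was 0.45, 0.40 and 0.49. Over all measured genes with a length it was 0.30, 0.27 and 0.23. All genes of 6000 bases or more had medians of 0.33, 0.27 and 0.13, and all genes under 2000 bases had medians of -0.41, -0.29 and -0.22. In WT, giredestrant over vehicle gave a rho over the 43 genes of 0.11, 0.08 and -0.23 and over all genes of 0.04, -0.17 and -0.04. For Y541S over WT under giredestrant, which shares the Y541S giredestrant library, rho was 0.33, 0.27 and 0.41 over the 43 genes and 0.26, 0.26 and 0.21 over all genes, and the 3 long genes had medians of 0.56, 0.59 and 0.95. For Y541S over WT under vehicle it was -0.02, -0.04 and -0.13 over the 43 genes and 0.01, -0.19 and -0.02 over all genes. Longer genes thus tended to higher ratios over all genes in both comparisons that hold the Y541S giredestrant library. In the other comparisons rho over all genes was -0.17 and -0.19 in secretory cells. It lay between -0.04 and 0.04 there in hormone-sensing and basal cells. Malat1 and depth differed between the libraries of every comparison. The part of length in the differences between the 43 genes was not tested.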

How the data were processed

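Single-cell libraries of 4 groups were compared, 1 library each. Per the file headers the authors deposited raw UMI counts per gene and barcode from Cell Ranger 6.0.1, and per the submitters' processing notes the genome was GRCm38. The deposited barcode and gene lists hold names, in the unit other, and no measurement. Kept cells had at least 1000 UMIs and 500 genes, and mitochondrial counts of 15% or less. The class rules asked for 10 UMIs per 10000 of the hormone-sensing or the secretory genes or 20 of the basal genes. A total of 818 cells that met several rules and 2280 that met none were left out of the classes, and 358 of the cells outside the classes were non-epithelial.

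Counts were summed per class and library and given as CPM. Total counts per library ran between 70781982 and 132660456 UMIs. Intervals printed are exact conditional binomial (ratios), Poisson (levels) or Clopper-Pearson (shares), at 95%, and cover counting error only. Medians of a list were set against an interval from the ranks of its genes, used only to judge the alternatives. No test was run, since each group has 1 library. The steps were tested on simulated data. Named genes were Mcm5, Pcna, E2f1, Ccne2, Mki67, Top2a, Cdk1, Ccnb1 and Cdc20, and the 3 S-phase and 3 G2/M genes with the widest relative log2 ratio at 5 or more CPM. For other lists up to 2 genes with the widest ratios were named. The members and lists were chosen with earlier results of these data known. The alternatives were scaling, low-count filters, doublets, class thresholds, depth, mitochondrial share, the Krt14 split and the cycling score, and the values by transcript length, in non-cycling cells and of the marker sums without Krt18 or Csn2 were chosen after seeing the data. Python 3.11.15, numpy 2.4.6, pandas 2.3.3, scipy 1.17.1, scanpy 1.11.5, R 4.3.3, edgeR 4.0.16 (TMM factors) and DESeq2 1.42.0 (size factors) were used.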

Additional observations from a re-analysis of the deposited data

Results flagged for a closer look

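Some values had opposite signs for giredestrant over vehicle in the Y541S and the WT pair of libraries, and the difference was not tested. In Krt14-low hormone-sensing cells the median relative log2 ratio of the S-phase genes was -0.97 in Y541S and 0.21 in WT, a difference of -1.18, and that of the G2/M genes was -1.004 in Y541S and 0.11 in WT, a difference of -1.11. In secretory cells the median of the G2/M genes was -0.79 in Y541S and 0.18 in WT, a difference of -0.96.

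Single genes also passed 1.5-fold in opposite directions in the Y541S and the WT pair, again with no test. In Krt14-low hormone-sensing cells the difference between Y541S and WT was -4.49 for Aurka (-2.47 in Y541S and 2.02 in WT), -2.36 for Mcm6 (-1.18 in Y541S and 1.18 in WT), -1.71 for Mcm4 (-0.62 in Y541S and 1.09 in WT) and -1.29 for Ttk (-0.68 in Y541S and 0.61 in WT). In secretory cells it was -1.63 for Ube2c (-0.96 in Y541S and 0.67 in WT) and -1.52 for Aurka (-0.86 in Y541S and 0.66 in WT).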

How the results depend on the processing

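No paired analysis was possible because each group is 1 library, and no library could be left out of a pair. The medians for giredestrant over vehicle in Y541S and for Y541S over WT under vehicle kept their sign in hormone-sensing and secretory cells under all 14 or 15 alternatives run. Under those alternatives the Y541S giredestrant medians ran from -1.08 to -0.63 (S-phase) and from -1.11 to -0.66 (G2/M) in hormone-sensing cells, and from -0.88 to -0.71 and from -0.85 to -0.47 in secretory cells. Medians near 0 changed sign under at least 1 alternative: in WT those of secretory S-phase genes and of both lists in basal cells, in Y541S those of both lists in basal cells, and under giredestrant that of basal S-phase genes. The median of the secretory G2/M genes for Y541S over WT under giredestrant, -0.27, also changed sign, to 0.05 as the ratio of summed UMIs. The following values moved beyond their intervals, and the cause was not tested. With CPM ratios that were not set against the median gene, giredestrant over vehicle in WT gave 0.65 for the S-phase genes in hormone-sensing cells, 0.55 for the G2/M genes in hormone-sensing cells and 0.17 for the G2/M genes in basal cells, giredestrant over vehicle in Y541S gave -0.66 for the G2/M genes in hormone-sensing cells and Y541S over WT under vehicle gave 0.51 for the S-phase genes in hormone-sensing cells and 0.82 for the G2/M genes in hormone-sensing cells. Without the cells of the highest doublet scores, Y541S over WT under vehicle gave 0.57 for the G2/M genes in hormone-sensing cells. With cells of several class rules counted in each class, Y541S over WT under vehicle gave 0.58 for the G2/M genes in secretory cells and 0.44 for the G2/M genes in basal cells and Y541S over WT under giredestrant gave -0.69 for the G2/M genes in hormone-sensing cells and -0.17 for the S-phase genes in secretory cells. With doubled class thresholds, giredestrant over vehicle in WT gave 0.16 for the G2/M genes in basal cells and Y541S over WT under vehicle gave 0.997 for the G2/M genes in hormone-sensing cells. With every cell weighed equally, giredestrant over vehicle in WT gave 0.59 for the G2/M genes in hormone-sensing cells, 0.00338 for the G2/M genes in secretory cells and 0.34 for the G2/M genes in basal cells and Y541S over WT under vehicle gave 0.89 for the G2/M genes in hormone-sensing cells, 0.26 for the S-phase genes in basal cells and 0.58 for the G2/M genes in basal cells. As the ratio of summed UMIs, an alternative chosen after seeing the data, giredestrant over vehicle in Y541S gave -0.47 for the G2/M genes in secretory cells and 0.092 for the G2/M genes in basal cells. Thinned to 2000 UMIs, the share of cycling cells was 4.13% in Y541S giredestrant, 6.69% in Y541S vehicle and 6.83% in WT giredestrant (hormone-sensing), and 17.7% in Y541S giredestrant, 24.1% in Y541S vehicle, 16.8% in WT giredestrant and 18.1% in WT vehicle (secretory), and 5.64% in Y541S giredestrant, 5.85% in Y541S vehicle, 4.64% in WT giredestrant and 3.94% in WT vehicle (basal), and 4.28% in Y541S giredestrant (Krt14-high hormone-sensing). Thinned to 5000 UMIs, the share of cycling cells was 9.92% in Y541S giredestrant, 12.0% in Y541S vehicle and 15.8% in WT giredestrant (hormone-sensing), and 36.4% in Y541S giredestrant, 41.7% in Y541S vehicle, 30.7% in WT giredestrant and 35.1% in WT vehicle (secretory), and 17.5% in Y541S giredestrant, 16.0% in Y541S vehicle, 16.1% in WT giredestrant and 12.3% in WT vehicle (basal), and 11.8% in Y541S giredestrant (Krt14-high hormone-sensing). With 2 or more UMIs of a list, the share of cycling cells was 14.6% in Y541S giredestrant, 14.3% in Y541S vehicle, 20.6% in WT giredestrant and 9.22% in WT vehicle (hormone-sensing), and 36.6% in Y541S giredestrant, 43.04% in Y541S vehicle, 34.0% in WT giredestrant and 37.3% in WT vehicle (secretory), and 18.8% in Y541S giredestrant, 19.0% in Y541S vehicle, 21.2% in WT giredestrant and 15.3% in WT vehicle (basal), and 14.8% in Y541S giredestrant (Krt14-high hormone-sensing). With 5 or more UMIs of a list, the share of cycling cells was 3.62% in Y541S giredestrant, 5.42% in Y541S vehicle, 5.09% in WT giredestrant and 3.24% in WT vehicle (hormone-sensing), and 16.8% in Y541S giredestrant, 22.6% in Y541S vehicle, 13.8% in WT giredestrant and 15.8% in WT vehicle (secretory), and 4.79% in Y541S giredestrant, 4.43% in Y541S vehicle, 3.46% in WT giredestrant and 3.01% in WT vehicle (basal), and 3.43% in Y541S giredestrant (Krt14-high hormone-sensing). Secretory cells kept a higher share than Krt14-low hormone-sensing and basal cells in every library under each of these. Scaling by edgeR TMM factors left all 160 values of named genes within their intervals, and the unshifted ratio moved 23 of them. The automatic doublet call marked 19 cells in WT giredestrant and 2 in WT vehicle, too few to have worked, so the highest scores were removed instead. Depth limits the cycling share, which depends on the thinning and on the UMIs asked for, and a single library per group limits every comparison.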

Other observations

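Cdc7, the kinase that fires replication origins, stood apart from the other replication genes in Krt14-low hormone-sensing cells, with 30.2 CPM in Y541S giredestrant, 6.53 CPM in Y541S vehicle and 6.35 CPM in WT giredestrant. In the Krt14-high hormone-sensing cells of Y541S giredestrant it was at 5.59 CPM, so the high level was in the Krt14-low cells of that library. Lin52, of the MuvB complex, was also lower in the Krt14-high cells, at 12.7 CPM against 43.9 CPM in the Krt14-low cells of the same library, a relative log2 ratio of -1.52. Both genes were picked after their values were seen.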
